A study of Mus musculus with 9 samples.

Results

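Cholesterol synthesis in the testis was followed through a given list of 7 genes that encode its enzymes: Hmgcs1, Idi1, Fdps, Sqle, Lss, Cyp51 and Dhcr7. They are 7 of the 32035 genes to which the deposited transcript values were summed, and all 7 had enough counts to be tested in every comparison. RNAseq was performed on whole testes of male C57Bl6/N mice aged 15 weeks, with 3 samples in each of 3 groups. The labels number the samples of a group and do not say more of their origin, so p-values measure the spread between these samples. WT mice carried no targeted allele. In Kpna6 ΔIBB/ΔIBB mice, exon 2 of the gene for importin α7 is lost and translation starts in exon 3, which gives a truncated protein without the domain that binds importin β. The Kpna6 -/- line carries a gene trap in intron 1. According to the study it is not a null in germ cells, which use another start of the gene past the insertion and still make importin α7, whereas its Sertoli cells make none. All groups share the C57Bl6/N background, to which both lines were backcrossed, and each library came from a whole organ with germ cells, Sertoli cells, Leydig cells and vessels mixed. In such bulk samples, fewer cells of a type and less RNA per cell cannot be told apart.

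The pathway begins with acetyl-CoA. HMG-CoA synthase acts early on the way to mevalonate, further enzymes turn mevalonate into isoprenoid units, squalene synthase joins these into squalene, and the squalene is closed into lanosterol and trimmed to cholesterol. In most cells the genes rise and fall together under SREBP2, which SCAP carries out of the endoplasmic reticulum when sterol is scarce and INSIG proteins hold back when it is plentiful. The testis is a special case, because Leydig cells use cholesterol for testosterone while spermatids express some of the enzymes, Cyp51 above all, at high levels that are not tied to sterol demand, and accumulate sterol intermediates.

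Promoter windows are shown because the members are textbook targets of 1 shared factor. RefSeq windows of 300 bases on GRCm38.p6, from 250 bases before each start site to 50 bases from it on, were given for 5 of the 7 members and not for Sqle and Fdps. The windows of Hmgcs1 (chr13:119690101-119690400, plus strand) and Cyp51 (chr5:4104648-4104947, minus strand) are shown, the first because it alone among the 5 held the sterol regulatory element core and the second because Cyp51 had the lowest log2 fold change of the members. Capitals mark every match on either strand. The sterol regulatory element core was searched as CACCCCAC and the CCAAT box by the letters of its name. The GC box was searched as GGGCGG and the E-box as CACGTG. A run like the cAMP response element was searched as TGACGC, and the full element as TGACGTCA.
Hmgcs1 promoter: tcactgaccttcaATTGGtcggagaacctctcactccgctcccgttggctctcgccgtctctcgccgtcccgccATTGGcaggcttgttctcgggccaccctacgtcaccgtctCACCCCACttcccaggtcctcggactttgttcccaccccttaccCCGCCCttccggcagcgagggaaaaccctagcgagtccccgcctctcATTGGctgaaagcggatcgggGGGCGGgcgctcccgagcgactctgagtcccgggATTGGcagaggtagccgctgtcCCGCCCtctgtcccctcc
Cyp51 promoter: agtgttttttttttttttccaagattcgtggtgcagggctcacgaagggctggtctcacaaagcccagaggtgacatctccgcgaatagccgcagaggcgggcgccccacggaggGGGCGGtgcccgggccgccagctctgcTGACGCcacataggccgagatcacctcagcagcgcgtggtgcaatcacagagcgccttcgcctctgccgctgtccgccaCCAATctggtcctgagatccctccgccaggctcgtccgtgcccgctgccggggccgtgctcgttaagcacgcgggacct
The letters CACCCCAC occurred 136 bases before the Hmgcs1 start and in 2.87% of 32817 promoter windows. The letters TGACGC occurred 108 bases before the Cyp51 start and in 7.39% of windows, and the Cyp51 window also held 1 CCAAT box 29 bases and 1 GC box 135 bases before the start. CCAAT and GGGCGG were common, in 37.39% and 35.63% of windows. Each occurred in all 5 members with a window, though not in all of their 7 windows. CACGTG was found in 7.15% of windows and TGACGTCA in 1.79%. A match of letters describes the sequence and shows no binding. Variants of these letters were not searched, so a window without a match is not shown to lack the element.

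The targeted gene was checked first. Kpna6 was measured at 201, 325 and 334 normalized CPM (counts relative to library size, scaled by TMM over the 9 libraries) in WT, at 81.2, 85.3 and 81.8 in Kpna6 ΔIBB/ΔIBB and at 247, 249 and 262 in Kpna6 -/- testes. The fall in Kpna6 ΔIBB/ΔIBB (log2 fold change −1.79 ± 0.15 SE, adjusted p = 1.94e-05) separated the groups, whereas Kpna6 -/- lay inside the WT range (−0.18 ± 0.14, adjusted p = 0.586). Kpna6 mRNA therefore does not tell Kpna6 -/- libraries from WT libraries, and counts over the whole gene do not check that label.

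Depth ranged from 24859751 to 31484692 estimated counts on genes. In the Kpna6 ΔIBB/ΔIBB comparison with WT, 36.6% of 18797 genes passed an adjusted p of 0.05 in edgeR, 17.7% higher and 18.9% lower. Of the Sertoli cell markers, 11 of 12 were higher and 1 lower there, and their summed level was 1390 to 1665 TPM (length-scaled relative transcript levels) against 894 to 966 in WT and 1046 to 1125 in Kpna6 -/-. All 8 elongating spermatid markers and all 6 round spermatid markers were lower, with sums of 57921 to 66055 against 69045 to 79136 and of 1101 to 1274 against 1443 to 1655 TPM in WT. The summed Leydig cell markers overlapped between the groups, at 1979 to 2840 TPM in Kpna6 ΔIBB/ΔIBB, 1985 to 3019 in WT and 2403 to 2444 in Kpna6 -/-. Single Leydig cell markers differed: 2 of 8 were called higher and 0 lower in Kpna6 ΔIBB/ΔIBB against WT. Their log2 fold changes ran from −0.6 to 0.91, with a median of 0.01. The third Kpna6 ΔIBB/ΔIBB library stood apart in epididymis markers, with a summed 171 TPM against 4.83 to 19.7 in the other 8, although Lcn5, Lcn8 and Defb29 stayed under 1 TPM in every library.

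Among the members, Cyp51 fell, Dhcr7 rose and Sqle fell slightly in Kpna6 ΔIBB/ΔIBB against WT, and the other 4 did not pass the test. That is 3 of 7 called, beside 36.6% of all genes, a share near the background. The median log2 fold change of the 7 was −0.14, beside 0.009 over all genes tested. Without the third Kpna6 ΔIBB/ΔIBB library the count stayed at 1 higher and 2 lower. In Kpna6 -/- against WT none of the 7 was called in edgeR, where 1.6% of 18681 genes were. Dhcr7 alone had an unadjusted p under 0.05 (0.0155), and DESeq2 called 0 members as well.

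**Figure D1:**
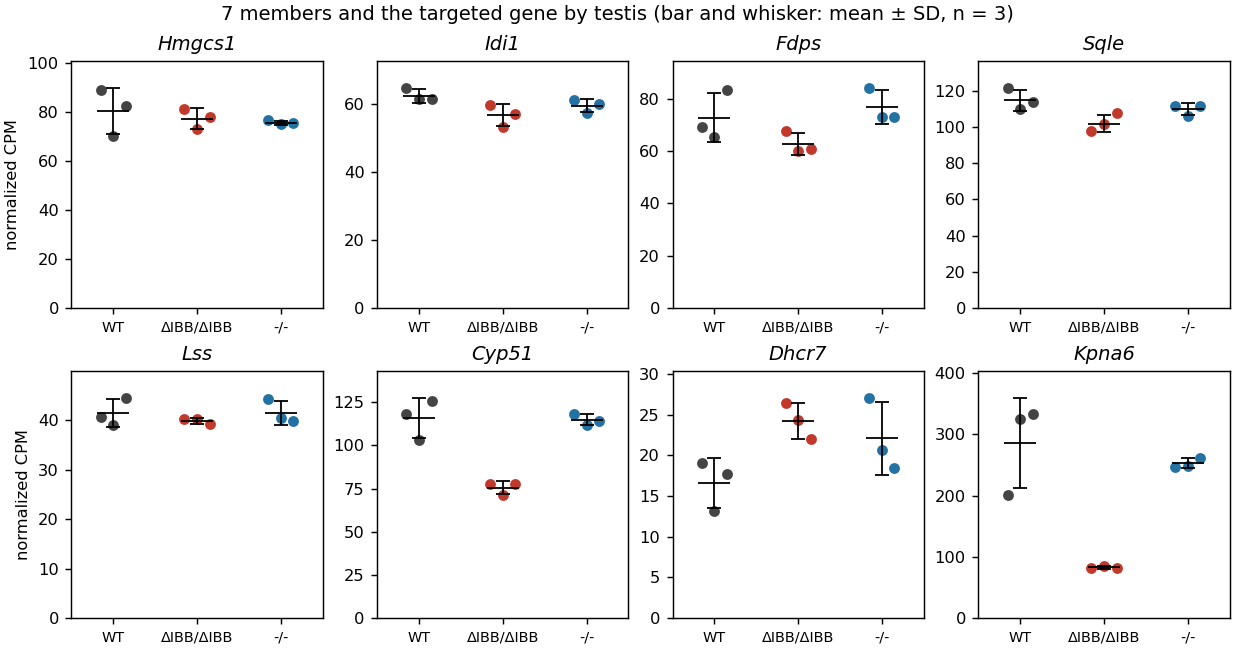
Normalized CPM of the 7 members and of Kpna6 in each testis (points), with mean ± SD of the 3 samples of a group. The Kpna6 ΔIBB/ΔIBB testes lie at 71.3 to 77.9 CPM for Cyp51, below all other testes, and at 22.0 to 26.4 CPM for Dhcr7, above WT but overlapping Kpna6 -/-.

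Per length, the members span a wide range of levels. In WT testes Fdps was highest with 90.3 ± 13.4 TPM (SD, n = 3), followed by Sqle with 53.7 ± 2.67 and Cyp51 with 50.8 ± 7.94, whose libraries overlapped. Hmgcs1 (32.5 ± 4.01 TPM) and Idi1 (30.0 ± 1.17 TPM) came next and also overlapped, and Lss (17.8 ± 1.58 TPM) and Dhcr7 (12.2 ± 0.694 TPM) were lowest and did not overlap. In Kpna6 ΔIBB/ΔIBB testes the order changed at 2 places: Cyp51 dropped to 34.0 ± 4.83 TPM, overlapping Hmgcs1 at 34.1 ± 1.76, and Dhcr7 reached 17.9 ± 1.53, overlapping Lss at 17.3 ± 2.52. In Kpna6 -/- testes the means ran from 94.5 TPM for Fdps to 16.5 TPM for both Lss and Dhcr7.

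Hmgcs1 (ENSMUSG00000093930, chr13:119690379-119708260 on GRCm38) encodes the cytosolic HMG-CoA synthase, which acts early on the way to mevalonate. It was measured at 88.9, 70.1 and 82.2 CPM in WT, at 81.1, 72.8 and 77.7 in Kpna6 ΔIBB/ΔIBB and at 76.5, 75.0 and 75.4 in Kpna6 -/-. The groups overlapped, and the WT mice spread more widely (coefficient of variation 11.8%) than either mutant line (5.42% and 1.03%). The log2 fold change was −0.05 ± 0.08 in Kpna6 ΔIBB/ΔIBB (95% interval −0.21 to 0.10, adjusted p = 0.624) and −0.09 ± 0.07 in Kpna6 -/- (−0.23 to 0.05, adjusted p = 0.621). Its direction in Kpna6 ΔIBB/ΔIBB depends on the scale, since the TPM means were 34.1 against 32.5 in WT, and scaling by library size only gave 0.04.

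Idi1 (ENSMUSG00000058258, chr13:8885501-8892451) encodes isopentenyl diphosphate isomerase, which interconverts the isoprenoid building blocks. Its level was 64.7, 61.2 and 61.2 CPM in WT, 59.5, 53.2 and 57.0 in Kpna6 ΔIBB/ΔIBB and 61.1, 57.3 and 59.8 in Kpna6 -/-. All Kpna6 ΔIBB/ΔIBB libraries lay below WT, by −0.14 ± 0.05 on the log2 scale, but the adjusted p of 0.0745 missed the threshold. Idi1 shares sequence with Gm13502, a processed pseudogene on chr2:53696121-53696804 (minus strand) with no introns. Its whole annotated length of 684 bases is identical to a stretch of Idi1-201, 22.6% of that transcript, so reads from this stretch match both. The first 60 shared bases, in exon 2 of 5 of Idi1-201 at chr13:8886763-8886822 and in Gm13502 at chr2:53696745-53696804, are shown as an example of sequence that cannot tell the genes apart. Capitals mark the first codon of the annotated copy.
Idi1 and Gm13502: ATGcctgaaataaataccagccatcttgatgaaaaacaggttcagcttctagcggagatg
Gm13502 was credited with 10.9, 12.8 and 10.5 CPM in WT, 5.55, 7.52 and 8.31 in Kpna6 ΔIBB/ΔIBB and 9.96, 7.66 and 9.98 in Kpna6 -/-. This was lower in Kpna6 ΔIBB/ΔIBB than in WT (−0.67 ± 0.14, adjusted p = 0.00429). With the counts of such copies added to Idi1, an alternative chosen after seeing the data, Idi1 changed by −0.21 (adjusted p = 0.00725) and passed the test. Summing the counts of all genes with near-identical stretches, an alternative planned beforehand, gave −0.21 as well (adjusted p = 0.00656). Idi1 also passed in 1 fit of all 9 samples (−0.14, adjusted p = 0.045). The TPM of Idi1-201 itself, 26.5 ± 0.852 in WT and 26.4 in Kpna6 ΔIBB/ΔIBB on average, overlapped. TPM carry no TMM scaling, and on log2(TPM + 1) the median of all genes tested was 0.084 in this comparison, beside 0.009 in the edgeR fit.

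Fdps (ENSMUSG00000059743, chr3:89093588-89101959) encodes farnesyl diphosphate synthase, the last enzyme before the branch to squalene. It was measured at 69.3, 65.6 and 83.4 CPM in WT, at 67.7, 59.9 and 60.8 in Kpna6 ΔIBB/ΔIBB and at 84.4, 73.1 and 73.1 in Kpna6 -/-. Kpna6 ΔIBB/ΔIBB overlapped WT (−0.21 ± 0.08, adjusted p = 0.079) but not Kpna6 -/- (−0.30 ± 0.06, adjusted p = 0.00465). In limma on log2(TPM + 1) the latter difference was −0.15 and missed the threshold (adjusted p = 0.213). The comparison with WT passed without the second WT library (−0.29, adjusted p = 0.0292), in DESeq2 (−0.21, adjusted p = 0.0337) and without a filter on low counts (adjusted p = 0.0499). The 4 genes with near-identical sequence to Fdps averaged between 0.0108 and 0.2 TPM.

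Sqle (ENSMUSG00000022351, chr15:59315077-59331192) encodes squalene epoxidase, an oxygen-dependent step that commits squalene to sterols. Its level was 122, 110 and 114 CPM in WT, 98.2, 102 and 108 in Kpna6 ΔIBB/ΔIBB and 112, 106 and 112 in Kpna6 -/-. Kpna6 ΔIBB/ΔIBB lay below WT by 10.8% (−0.16 ± 0.05, adjusted p = 0.028), with 108 CPM in the highest Kpna6 ΔIBB/ΔIBB library and 110 in the lowest WT library. The call was lost in 4 of the 6 fits that left out 1 library, without the first or the third WT library (adjusted p = 0.0989 and 0.0649) and without the first or second Kpna6 ΔIBB/ΔIBB library (0.11 and 0.0884). It was also lost with scaling by library size only (−0.07, adjusted p = 0.34), where the median of all genes shifts from 0.009 to 0.107 and the calls from 3327 higher and 3547 lower to 5416 higher and 2326 lower. In limma on log2(TPM + 1) the value was −0.04 (adjusted p = 0.628), and with length-scaled counts the adjusted p was 0.0645.

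Lss (ENSMUSG00000033105, chr10:76531588-76557138) encodes lanosterol synthase, which closes the ring system. It was measured at 40.7, 39.1 and 44.6 CPM in WT, 40.3, 40.3 and 39.2 in Kpna6 ΔIBB/ΔIBB and 44.3, 40.5 and 39.8 in Kpna6 -/-. Kpna6 ΔIBB/ΔIBB differed from WT by −0.05 ± 0.06 on the log2 scale (95% interval −0.17 to 0.07, adjusted p = 0.555) and Kpna6 -/- by 0.00 ± 0.06 (−0.12 to 0.13, adjusted p = 0.993), and neither passed in any of the 17 alternatives. With scaling by library size only the first value was 0.05.

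Cyp51 (ENSMUSG00000001467, chr5:4081145-4104746) encodes lanosterol 14α-demethylase, whose product in gonads is a sterol able to resume meiosis in oocytes. It was measured at 118, 103 and 126 CPM in WT, at 77.9, 71.3 and 77.7 in Kpna6 ΔIBB/ΔIBB and at 118, 112 and 114 in Kpna6 -/-. The Kpna6 ΔIBB/ΔIBB libraries lay below every other library, at 65.5% of the WT level by the fit (−0.61 ± 0.07, adjusted p = 9.6e-05). The difference from Kpna6 -/- was of the same size (−0.61 ± 0.05, adjusted p = 3.58e-06), and Kpna6 -/- differed from WT by −0.01 ± 0.06 (95% interval −0.14 to 0.11). The fall passed in all 17 alternatives, between −0.70 and −0.47. Cyp51 shares 166 bases with Akap9 on the opposite strand, and the library kit is not stated to keep strand, so reads there cannot be told apart. Spermatid markers, which were lower in the same libraries, have medians of −0.52 (round) and −0.35 (elongating) on the log2 scale, and their part in the fall of Cyp51 was not tested.

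Dhcr7 (ENSMUSG00000058454, chr7:143823145-143848410) encodes 7-dehydrocholesterol reductase, which makes cholesterol in the last step of its branch. It was measured at 19.0, 13.2 and 17.7 CPM in WT, at 26.4, 24.3 and 22.0 in Kpna6 ΔIBB/ΔIBB and at 27.1, 20.6 and 18.5 in Kpna6 -/-. Kpna6 ΔIBB/ΔIBB was above WT without overlap (0.55 ± 0.12, a rise of 46.0%, adjusted p = 0.00524), while Kpna6 -/- overlapped both (0.41 ± 0.14 against WT, adjusted p = 0.212). The 2 lines did not differ by the test (0.13 ± 0.12, 95% interval −0.10 to 0.36, adjusted p = 0.456). Sequence of 207 to 227 bases in Dhcr7 transcripts recurs at 95% identity or more in 10 other genes. Adding the counts of all those genes gave −0.18 (adjusted p = 0.00124), whereas adding only copies that match over most of a transcript, of which Dhcr7 has 0, left 0.55. Sertoli cell markers were higher in the same libraries, with a median log2 fold change of 0.58, and their part in the rise of Dhcr7 was not tested.

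Transcripts of 3 members add detail that gene sums hide. Their TPM carry no TMM scaling, and on log2(TPM + 1) the median of all genes tested was 0.084 in Kpna6 ΔIBB/ΔIBB against WT. Of 13 annotated Dhcr7 transcripts, 4 reached a mean of 1 TPM in any group. Dhcr7-202, a coding transcript that starts downstream at chr7:143829626, was measured at 5.99, 3.55 and 4.04 TPM in WT, at 10.9, 11.9 and 8.70 in Kpna6 ΔIBB/ΔIBB and at 8.98, 6.51 and 4.14 in Kpna6 -/-. It was higher in every Kpna6 ΔIBB/ΔIBB library than in every WT library (2.32 times on average, 2-sided exact permutation p = 0.1, the smallest that 3 against 3 allows). Dhcr7-201, the coding transcript from the upstream start at chr7:143823167, overlapped instead, at 1.62 TPM on average in Kpna6 ΔIBB/ΔIBB against 2.31 in WT. The share of Dhcr7 TPM on Dhcr7-202 was 58.7% ± 9.05 in Kpna6 ΔIBB/ΔIBB, 36.9% ± 10.0 in WT and 38.7% ± 7.10 in Kpna6 -/-. Its difference from WT of 21.8 percentage points had an exact permutation p of 0.1, or 0.6 after adjustment over 18 such tests, and a single such test of 3 against 3 cannot pass 0.05.

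Cyp51-201, the coding transcript, followed the gene with 36.9, 31.8 and 40.0 TPM in WT, 26.4, 25.1 and 26.7 in Kpna6 ΔIBB/ΔIBB and 36.5, 35.4 and 35.2 in Kpna6 -/-. Kpna6 ΔIBB/ΔIBB lay below both other groups (0.72 times WT, exact permutation p = 0.1). A retained-intron transcript, Cyp51-204, carried 9.90 to 18.5 TPM in WT and 3.97 to 11.6 in Kpna6 ΔIBB/ΔIBB, which overlapped. The coding share of 71.7% ± 5.23 in WT and 77.6% ± 9.07 in Kpna6 ΔIBB/ΔIBB also overlapped.

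Most of the Lss TPM sat on transcripts other than the coding Lss-201. The retained-intron transcript Lss-207 took 27.1%, the short processed transcript Lss-202 31.6% and the coding Lss-201 21.2% of Lss TPM in WT. Lss-202 is 352 bases long and Lss-201 4667, so the same TPM rests on fewer reads for Lss-202. Its level varied between libraries, from 2.41 to 6.9 TPM within Kpna6 ΔIBB/ΔIBB. Lss-201 was at 3.87, 3.26 and 4.17 TPM in WT and at 4.50, 5.00 and 4.35 in Kpna6 ΔIBB/ΔIBB, without overlap (1.23 times, exact permutation p = 0.1). For Hmgcs1 the deposited values held only 1 transcript. Sqle-201, Fdps-201 and Idi1-201 carried 93.5%, 94.7% and 88.3% of their genes in WT.

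**Figure D2:**
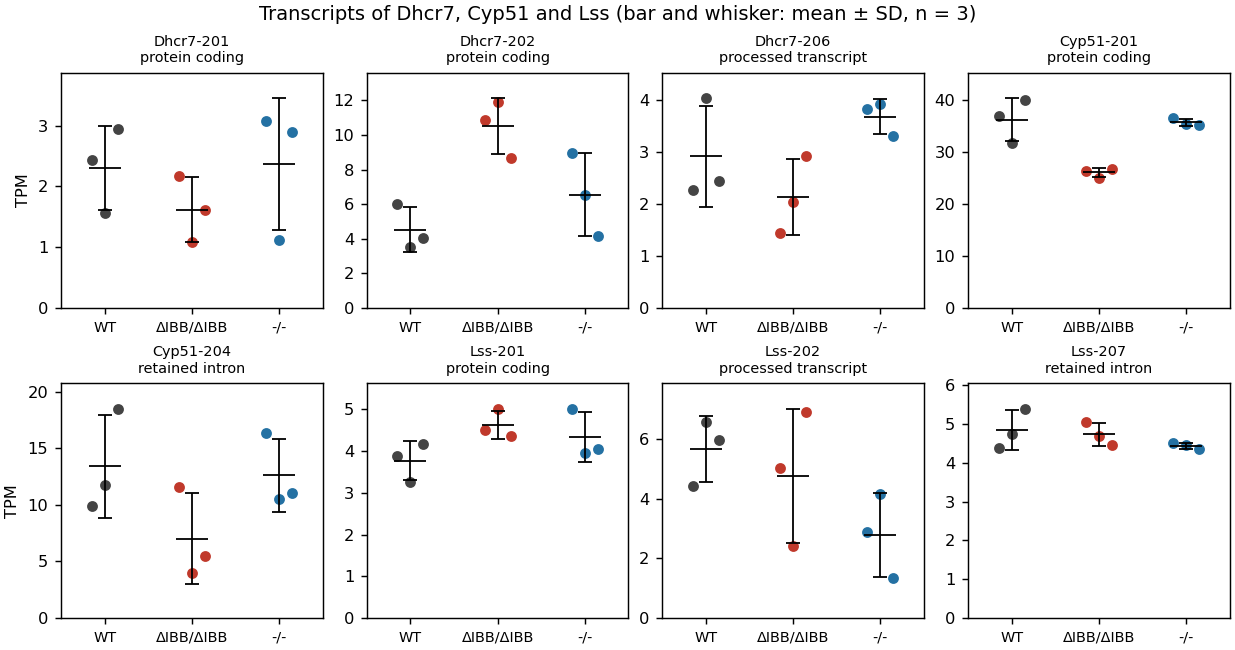
TPM of 8 transcripts of Dhcr7, Cyp51 and Lss in each testis (points) with mean ± SD of 3 samples. Dhcr7-202 lies higher in Kpna6 ΔIBB/ΔIBB (8.70 to 11.9 TPM) than in WT (3.55 to 5.99 TPM) and Cyp51-201 lies lower (25.1 to 26.7 against 31.8 to 40.0 TPM), while the retained-intron transcripts overlap.

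The second WT library was lowest of the 3 WT samples for all 7 members and for 16 of the 22 synthesis genes listed. It was also lowest in Star (16.9 CPM against 71.1 and 56.3), which moves cholesterol into Leydig cell mitochondria, and in Cyp11a1 (69.0 CPM against 163 and 132), which opens steroid synthesis there. The gap was smaller over all 8 Leydig cell markers, which summed to 1985 TPM in that library against 3019 and 2233. Among Kpna6 -/- samples the first library was highest for 6 of 7 members, and among Kpna6 ΔIBB/ΔIBB samples the first was highest for 6 of 7. Such ranks were not counted over all genes, so a shift of a whole library cannot be told from one of these genes. Without the second WT library, 4 members were called in Kpna6 ΔIBB/ΔIBB instead of 3, Fdps being added.

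Over the 9 libraries, which share depth scaling and the 3 genotypes, Pearson correlations of log2 CPM among the members ran from −0.49 between Sqle and Dhcr7 to 0.85 between Fdps and Lss. Dhcr7 was the member most apart, with values of −0.49 to 0.27 against the other 6. Cyp51 correlated at 0.82 with Fdps and 0.78 with Sqle. Among 11686 genes of at least 5 TPM, the closest to Cyp51 was Sept4 (r = 0.996), to Sqle Itfg1 (0.975), to Dhcr7 Ilvbl (0.968), to Fdps Vps37b (0.952), to Idi1 Kif20b (0.926), to Hmgcs1 Serpina3g (0.894) and to Lss Otud6a (0.890). These are the highest of many correlations over 9 points and describe likeness only.

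The other steps of synthesis place the members in context. In Kpna6 ΔIBB/ΔIBB against WT, 3 of the 9 genes of the mevalonate and isoprenoid steps were called higher and none lower, and 5 of the 13 squalene and sterol genes were called higher and 3 lower, beside backgrounds of 17.7% and 18.9%. The sterol count depended on single libraries: it was 2 higher and 1 lower without the first Kpna6 ΔIBB/ΔIBB library, 4 and 1 without the second, 3 and 3 without the third, 6 and 2 without the first WT library, 3 and 3 without the second and 4 and 2 without the third. The median log2 fold change was −0.04 in the first list and 0.21 in the second, and 0.28 over the 15 synthesis genes that are no members against −0.14 over the members. Mvk, the kinase that phosphorylates mevalonate, rose from 8.93 ± 0.278 to 13.1 ± 0.366 CPM (0.56 ± 0.08, adjusted p = 0.000496). Mvd, the decarboxylase that yields isopentenyl diphosphate, rose from 4.09 ± 0.511 to 6.40 ± 0.832 CPM (0.65 ± 0.14, adjusted p = 0.00474). Acat2, the acetoacetyl-CoA thiolase at the entrance, rose by 0.48 (adjusted p = 0.00463), and it shares sequence with Acat3 and Tcp1.

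Of the later steps, Ebp, the sterol isomerase, rose from 8.07 ± 0.573 to 13.5 ± 1.61 CPM (0.75 ± 0.11, adjusted p = 0.000411). Msmo1, which removes the methyl groups at position 4 of the sterol, rose from 14.6 ± 4.47 to 23.3 ± 2.99 CPM (0.68 ± 0.18, adjusted p = 0.0137), but missed the threshold in limma (adjusted p = 0.0793) and without the first Kpna6 ΔIBB/ΔIBB library (0.0605). Sc5d, the desaturase that makes the substrate of DHCR7, had a log2 fold change of 0.36 (adjusted p = 0.032), a call that was lost when any 1 library other than the first WT library was left out (adjusted p = 0.0544 to 0.0864). Fdft1, squalene synthase, was the only synthesis gene besides Cyp51 and Sqle to be called lower (390 to 352 CPM, −0.14 ± 0.04, adjusted p = 0.0124). It lost the call with library-size scaling (−0.04), in limma (−0.02) and with near-identical sequences summed (−0.03, adjusted p = 0.551). The call was also lost without the first or second Kpna6 ΔIBB/ΔIBB library (adjusted p = 0.0544 and 0.0605). In Kpna6 -/- against WT 0 of the 22 synthesis genes were called, with a median of 0.07.

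**Figure D3:**
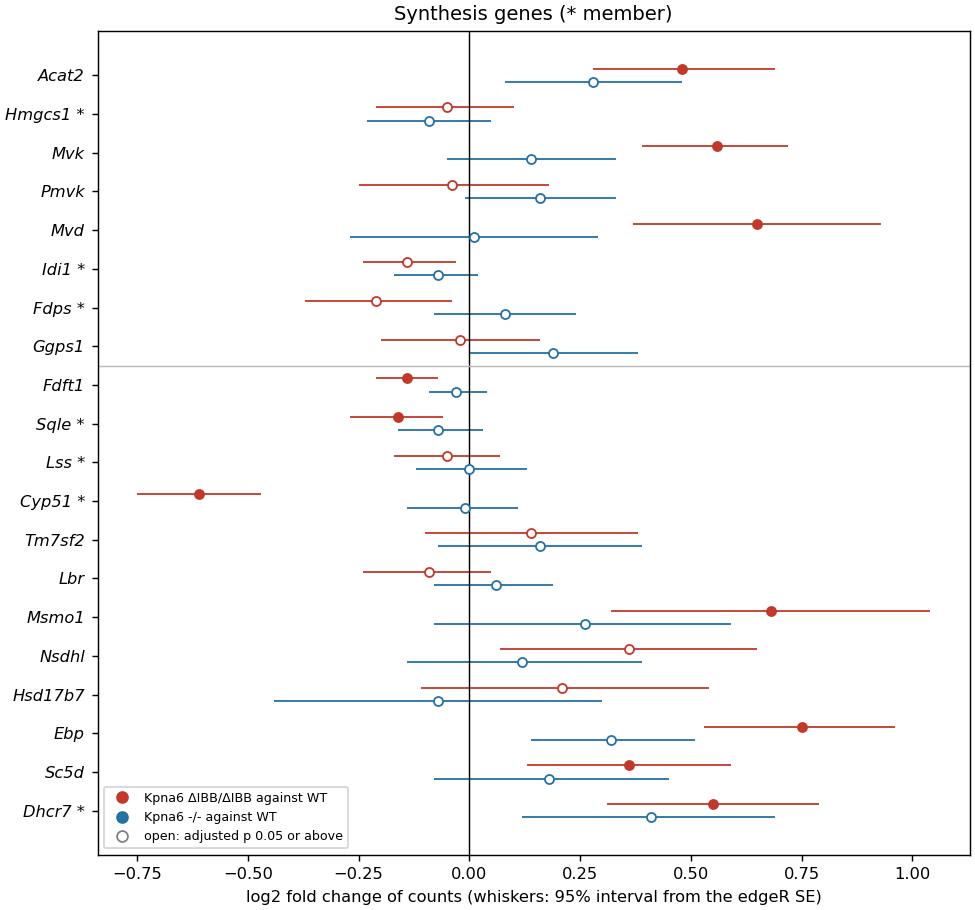
Log2 fold change of counts against WT for 20 of the 22 synthesis genes in pathway order, with approximate 95% intervals. Filled points passed an adjusted p of 0.05 and stars mark members. In Kpna6 ΔIBB/ΔIBB (red) 7 of the genes drawn are called higher and 3 lower, and in Kpna6 -/- (blue) 0 are called.

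Setting the level in Kpna6 -/- testes, which do not enter the fold change, against the log2 fold change of Kpna6 ΔIBB/ΔIBB over WT gave a Spearman rho of −0.75 over the 22 synthesis genes. The 3 called lower had 49.3 (Cyp51), 50.9 (Sqle) and 176 TPM (Fdft1), and the 7 named above that were called higher had between 3.30 (Mvd) and 16.5 TPM (Dhcr7). Over 16084 tested genes of at least 1 TPM the same rho was −0.26. Genes of 1 pathway are not independent points, and no test is attached to these values.

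**Figure D4:**
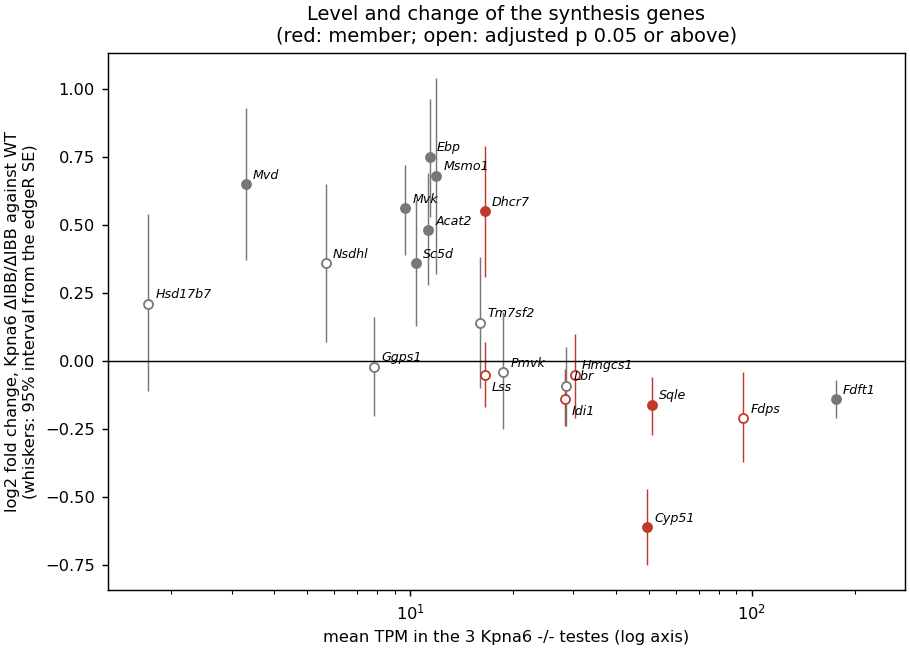
Mean TPM in the 3 Kpna6 -/- testes (log axis) against the log2 fold change of Kpna6 ΔIBB/ΔIBB over WT. Drawn are 20 of the 22 synthesis genes with approximate 95% intervals. Genes called lower (Sqle, Cyp51, Fdft1) lie at 49.3 TPM or above and genes called higher at 16.5 TPM or below.

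Between the 2 mutant lines 30.3% of 18752 genes were called, 13.5% higher and 16.8% lower in Kpna6 ΔIBB/ΔIBB. Of the members, Cyp51 and Fdps were lower and none was higher. Over all 22 synthesis genes 5 were higher, Mvk, Mvd, Msmo1 and Ebp among them, and 4 lower (Fdps, Fdft1, Cyp51 and Lbr). Of the lower genes, Lbr kept the call only without the first Kpna6 ΔIBB/ΔIBB library when 1 library was left out (adjusted p = 0.0586 to 0.124 without the others) and missed it in DESeq2 (0.0816) and limma (0.815). Fdft1 missed it without the first or second Kpna6 ΔIBB/ΔIBB library (adjusted p = 0.0689 and 0.0759), without the third Kpna6 -/- library (0.0863) and in limma (0.735). Without the first Kpna6 -/- library the synthesis genes held 8 higher and 3 lower, without the third 4 and 2, and without the second Kpna6 ΔIBB/ΔIBB library 5 and 2. In the first of these Dhcr7 was added as higher (0.30, adjusted p = 0.0343), and without the third Kpna6 ΔIBB/ΔIBB library Sqle was added as lower (−0.14, adjusted p = 0.0335).

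Of the 11 regulators of the pathway, 6 were called higher and 0 lower in Kpna6 ΔIBB/ΔIBB against WT, with a median log2 fold change of 0.22, beside 17.7% and 18.9% of all genes. The Sertoli and macrophage marker lists had medians of 0.58 and 0.44 in this comparison, and their part in the counts of regulators, of uptake genes and of efflux genes was not tested. Srebf2, which encodes the factor most tied to synthesis, was at 43.8, 42.7 and 40.8 CPM in WT and 44.1, 44.6 and 46.4 in Kpna6 ΔIBB/ΔIBB (0.09 ± 0.05, adjusted p = 0.204), and it passed only under library-size scaling (0.19, adjusted p = 0.0151). Scap, its escort, rose from 26.7 ± 1.06 to 40.5 ± 1.45 CPM (0.60 ± 0.06, adjusted p = 3.41e-05). Srebf1, better known for fatty acid synthesis, rose by 0.60 (adjusted p = 0.00119), and Insig1, a sterol-fed brake and itself an SREBP target, by 0.36 (adjusted p = 0.00338). Mylip, a ubiquitin ligase induced by sterols, rose from 2.30 to 3.85 CPM (0.74 ± 0.17, adjusted p = 0.0052). In Kpna6 -/- 0 of 11 were called. Srebf1 lay nearest to the threshold (0.37, adjusted p = 0.0588) and passed it in DESeq2 (0.0387), without a filter on low counts (0.0204) and without the first WT library (0.0251).

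Uptake and intracellular transport showed 6 of 11 genes higher and 0 lower in Kpna6 ΔIBB/ΔIBB, beside the same 17.7% and 18.9% of all genes. The count was 6 higher and 0 lower without the first WT library, 5 and 1 without the second and 5 and 0 without the third. It was 5 and 0 without the first or the third Kpna6 ΔIBB/ΔIBB library, and 4 and 0 without the second. Lrp8 and Npc1 each kept the call in 2 of these 6 fits. Lrp8 missed the threshold without the second or the third Kpna6 ΔIBB/ΔIBB library, among others (adjusted p = 0.0558 and 0.0674). Lipa, the lysosomal lipase that frees cholesterol from imported esters, rose from 7.11 ± 0.719 to 12.7 ± 0.579 CPM (0.84 ± 0.10, adjusted p = 0.000126). Lrp1, an endocytic lipoprotein receptor, rose by 0.67 (adjusted p = 1.51e-05) and Npc2, which lifts cholesterol out of lysosomes, by 0.64 (adjusted p = 4.81e-05). Scarb1, the HDL receptor, was at 133, 118 and 128 CPM in WT and 119, 118 and 100 in Kpna6 ΔIBB/ΔIBB (−0.16 ± 0.07, adjusted p = 0.0922). It was called lower than in WT in DESeq2 (adjusted p = 0.043), with length-scaled counts (0.0159) and without the second WT library (0.0452). It was also lower than in Kpna6 -/- (−0.22 ± 0.06, adjusted p = 0.0202) except without the first Kpna6 -/- library (adjusted p = 0.0865), with library-size scaling (0.164) or in limma (0.188).

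Of the genes of efflux, esterification and breakdown 9 of 10 could be tested, and Kpna6 ΔIBB/ΔIBB against WT had 6 of them higher and 1 lower, again beside 17.7% and 18.9% of all genes. Apoe, the lipoprotein of efflux, rose from 87.2 ± 25.2 to 146 ± 24.6 CPM (0.74 ± 0.17, adjusted p = 0.00555), and Abca1, the transporter that loads HDL, by 0.34 (adjusted p = 0.00164). Abcg1 was called at 0.72 (adjusted p = 0.021), but not without the first WT library (0.0635), the third WT library (0.0726) or the first Kpna6 ΔIBB/ΔIBB library (0.51, adjusted p = 0.0932). Cyp27a1 and Cyp46a1, which hydroxylate cholesterol, rose by 0.66 and 0.39 (adjusted p = 0.00178 and 0.00632). Soat1, which esterifies it, was called at 0.34 (adjusted p = 0.00302), but not with length-scaled counts (0.0641) or in limma with a pseudocount of 1 (0.0503), and it lay at −0.07 when near-identical sequences were summed. Lipe, hormone-sensitive lipase, fell from 377 ± 28.8 to 266 ± 12.5 CPM (−0.50 ± 0.06, adjusted p = 8.87e-05). In Kpna6 -/- none was called, with Apoe at 0.60 (adjusted p = 0.0567, or 0.0365 with the replicate number as a block and 4.51e-06 without the first WT library).

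Against Kpna6 -/-, Kpna6 ΔIBB/ΔIBB testes had 4 of 11 regulators higher and 0 lower, 7 of 11 uptake genes higher and 1 lower, and 4 of 9 efflux genes higher and 1 lower, beside 13.5% and 16.8% of all genes. The regulators called higher fell to 2 without the first Kpna6 ΔIBB/ΔIBB library, without the second Kpna6 -/- library, without the third, in DESeq2 and with length-scaled counts. The efflux genes called higher were 2 without the second Kpna6 ΔIBB/ΔIBB library and 6 without the third, with 1 lower in both cases. The Sertoli and macrophage marker lists had medians of 0.37 and 0.25 in this comparison, and their part was not tested. Mylip (0.79 ± 0.17, adjusted p = 0.00371), Lipa (0.55 ± 0.08, adjusted p = 0.000459) and Abca1 (0.56 ± 0.08, adjusted p = 0.000233) were higher there and Lipe was lower (−0.61 ± 0.04, adjusted p = 1.78e-06). This comparison and that with WT share the Kpna6 ΔIBB/ΔIBB samples.

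**Figure D5:**
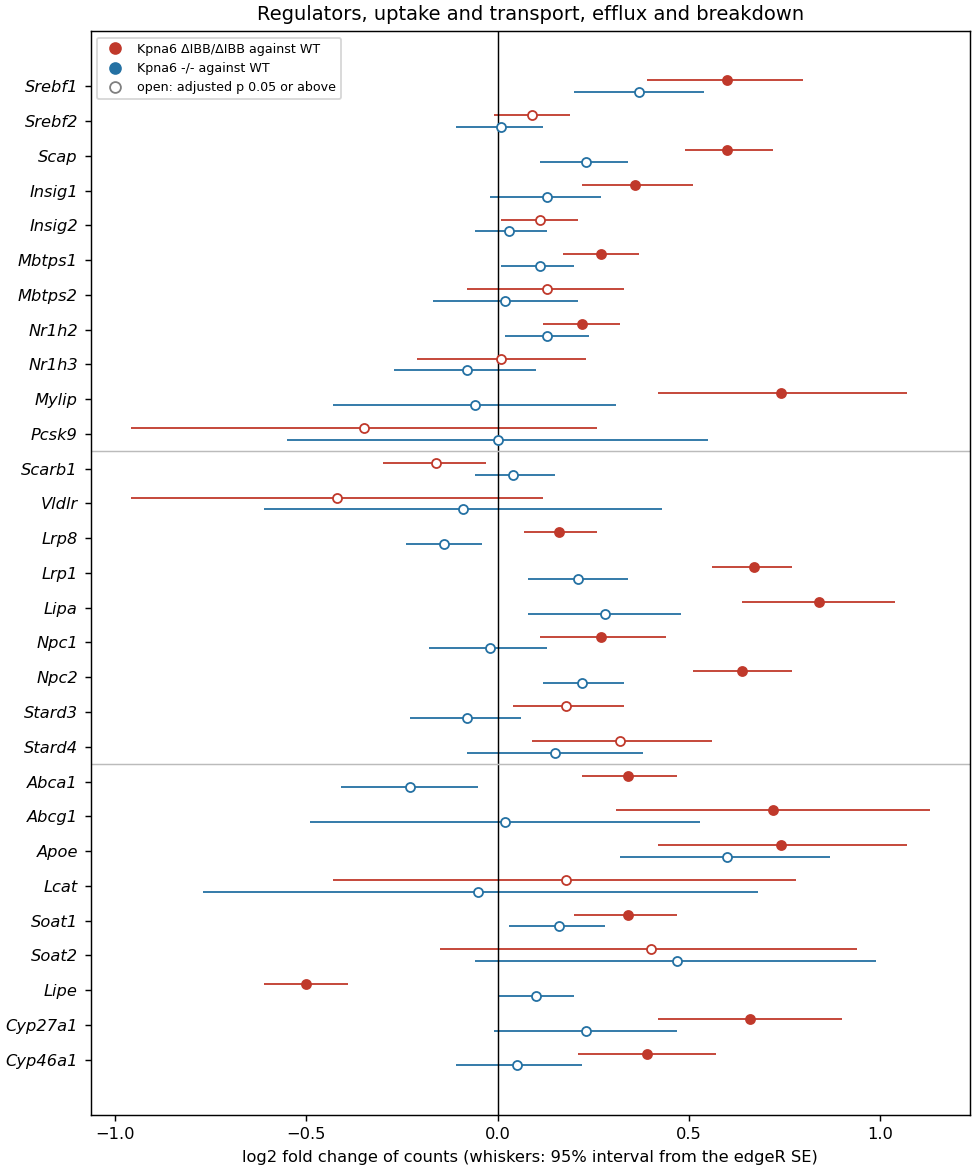
Log2 fold change against WT, with approximate 95% intervals, of 11 regulators, 9 uptake and transport genes and 9 efflux, esterification and breakdown genes. Lines separate the lists, and filled points passed an adjusted p of 0.05. In Kpna6 ΔIBB/ΔIBB (red) 17 of the genes drawn are called higher and Lipe alone lower, and in Kpna6 -/- (blue) 0 are called.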

How the data were processed

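Poly(A) RNA of 9 whole testes (3 WT, 3 Kpna6 ΔIBB/ΔIBB, 3 Kpna6 -/-) was sequenced in pairs, and the authors deposited, per transcript, estimated counts and TPM from kallisto (version 0.45 per the labels) for mm10. The transcript release is not given in the sources used here. Of 96626 transcripts, 95301 were assigned to 32035 GENCODE M21 genes and 1325 were left out. Estimated counts were summed per gene and rounded to whole numbers. Each pair of groups was fitted alone with edgeR 4.0.16 (R 4.3.3, TMM, filterByExpr, quasi-likelihood F-test, 2-sided), and p-values were adjusted by Benjamini-Hochberg over all genes tested, called under 0.05. Intervals called 95% are a normal approximation around the log2 fold change, with the SE derived from that value and the F statistic. They do not use the distribution of the F-test and are narrower than it would give with 3 samples per group. Single transcripts were compared by exact permutation tests. Near-identical sequence (at least 95% over at least 100 bases) was found with blastn 2.17.0+. The fits were also run on simulated counts for Kpna6 ΔIBB/ΔIBB against WT, with the same spread for all genes and larger changes than most named here. That run does not show how well smaller changes are recovered.

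Alternatives were DESeq2 1.42.0, limma 3.58.1 on log2(TPM + 1) and log2(TPM + 0.1), other filters, scaling and sample sets, and summed copies. Depth was 24859751 to 31484692 counts on genes, and replicates differed by more than sampling noise (chi-square per gene 3.59 to 6.68). Same-numbered samples did not deviate together (correlations −0.056 to 0.078), so replicate numbers were not taken as pairs. Besides the members, genes of 5 pathway lists were named where called with an absolute log2 fold change of at least 0.3, with Srebf2, Scarb1 and Insig1 in any case, and the closest gene of at least 5 TPM for each member. Fdft1, Lbr, Lrp8, Npc1, Gm13502, Star and Cyp11a1 were named after their values were seen. Some genes of these lists are counted but not reported here by name. The members and lists were chosen with earlier results of these data known.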

Additional observations from a re-analysis of the deposited data

Results flagged for a closer look

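The 2 mutant lines, each set against the same WT samples, differed from each other in 2 of the 7 members by a direct test. This lay beside 30.3% of 18752 genes called between the lines, a share near that of the members. For Cyp51 the log2 fold change of Kpna6 ΔIBB/ΔIBB over Kpna6 -/- was −0.61 (edgeR, adjusted p = 3.58e-06), with all 3 Kpna6 ΔIBB/ΔIBB samples below all 3 of the other line. For Fdps it was −0.30 (adjusted p = 0.00465), again with no overlap between the samples. In limma on log2(TPM + 1) the Fdps difference was −0.15 and missed the threshold (adjusted p = 0.213).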

How the results depend on the processing

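The count of genes called in Kpna6 -/- against WT, 299, was 624 without a filter on low counts, 70 with length-scaled counts, 24 and 28 in limma with pseudocounts of 1 and 0.1, and 92 to 518 when 1 sample was left out (92 without the first Kpna6 -/- sample, 518 without the first WT sample). Members called in Kpna6 ΔIBB/ΔIBB against Kpna6 -/- went from 2 to 1 in limma with either pseudocount, and ranged from 2 to 3 when 1 sample was left out. Members called against WT ranged from 2 to 4 for Kpna6 ΔIBB/ΔIBB and stayed at 0 for Kpna6 -/-. Summing the counts of all genes with near-identical stretches turned the direction against WT for Dhcr7 (−0.18), Acat2 (−0.02), Msmo1 (−0.13), Mbtps2 (−0.13), Npc1 (−0.04), Soat1 (−0.07) and Soat2 (−0.48), and against Kpna6 -/- for Dhcr7 (−0.15), Msmo1 (−0.03), Mbtps2 (−0.11), Npc1 (−0.06) and Soat1 (−0.08). By construction this adds the counts of other genes. Fdft1 against Kpna6 -/- was 0.02 in limma, and the cause was not tested.

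The replicate number as a block gave 6793, 229 and 6032 genes called (6874, 299 and 5673 without it) and left the members called at 3, 0 and 2. Scaling by library size only gave 5416 higher and 2326 lower genes against WT in Kpna6 ΔIBB/ΔIBB, and limma on log2(TPM + 1) 3494 and 1451, beside 3327 and 3547. Under library-size scaling Hmgcs1 (0.04) and Lss (0.05) lay above 0.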
